A study of Rattus norvegicus with 145 samples.

Results

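The 35 genes described here are those with less messenger RNA in the cerebellum of Q130 knock-in (KI) rats than of wild type (WT) rats at both ages sampled there, without being strongly enriched in the cerebellum over the forebrain. They are 35 of the 32883 genes in the count table. Members were selected on measured values: a mean KI over WT ratio of at most 0.82 in cerebellum at 19 and at 24 months, a WT mean of at least 5 CPM at both ages (CPM being a gene's count per 1000000 counts of its library), and a WT cerebellar mean at 19 months under 4 times that of striatum or under 4 times that of cortex. Another 3 genes that met these conditions were excluded by identifier. Because the cerebellar difference between genotypes chose the members, it is given below as a description, and nothing is read from a test of it. The tests that are read concern other regions, the sexes and the WT animals.

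Bulk RNA sequencing was carried out on striatum, cerebral cortex and cerebellum of Long Evans rats. KI animals were heterozygous for the Q130 allele, a knock-in model of Huntington's disease, and the WT animals carried no knock-in. The ages were 2, 6, 10, 19 and 24 months for striatum, the last 3 of these for cortex and the last 2 for cerebellum. Each genotype was represented by 5 females and 5 males at 10 and at 19 months. The oldest set, of 24 months, consisted of 7 KI animals (3 females, 4 males) and 4 WT animals (2 of each sex). The striatum libraries of 2 and 6 months came from 3 males per genotype, added by the submitters to control for the pipeline. The labels mention no pooling, and each library stands for 1 animal in 1 region.

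Huntington's disease follows from a lengthened CAG tract in huntingtin, a gene expressed widely in the brain, and the medium spiny neurons of the striatum are the cells best known to be lost. The cerebellum is made up mostly of small granule cells, with Purkinje cells as the output of its cortex and glia between them, and it is usually regarded as less affected than the striatum. In bulk tissue, fewer cells of a type and less RNA per cell cannot be told apart.

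The files give Ensembl rat identifiers without symbols, and 0 of the 32883 identifiers could be matched to a gene name here, so what the members encode is not stated. For the same reason the labelled regions, the huntingtin gene and cell type markers were not checked by name. The members are numbered 1 to 35 from the lowest to the highest geometric mean of their cerebellar ratios at 19 and 24 months. Member 1 is ENSRNOG00000003171, member 2 ENSRNOG00000027171, member 5 ENSRNOG00000009912 and member 11 ENSRNOG00000060879. The first pair had the lowest ratios, and the other pair had a positive KI minus WT difference in striatum on average over 10, 19 and 24 months; that these 4 identifiers are printed was decided after the values were seen.

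The 145 libraries came from 63 animals, 51 of them sampled in more than 1 region, including all 20 animals of 19 months, which gave all 3 regions. In units of 1000000, the estimated counts summed to between 25.6 and 34.4 in the cerebellar libraries, to between 28.9 and 47.3 in cortex and to between 26.7 and 34.5 in striatum. In 7 libraries, all from striatum or cortex, the correlation with libraries of the same region and age was outlying.

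In cerebellum, the KI over WT ratio of the 35 members ran from 0.442 to 0.8197 at 19 months, with a median of 0.781. At 24 months it ran from 0.113 to 0.819, with a median of 0.740, and 25 of the 35 members had the lower ratio at 24 months. The ages came from animals of different identifier series, with only 4 WT libraries at 24 months. Whether the ratios differ by age was not tested. WT levels in CPM at 19 months ran from 5.34 to 470. On the TPM scale, which corrects for transcript length, the WT cerebellar levels ran from 3.74 to 452, with a median of 17.7, and the highest belonged to members 15, 18 and 26. Above the floor of 5 CPM that the rule set, the list therefore spans low and high levels.

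**Figure D1:**
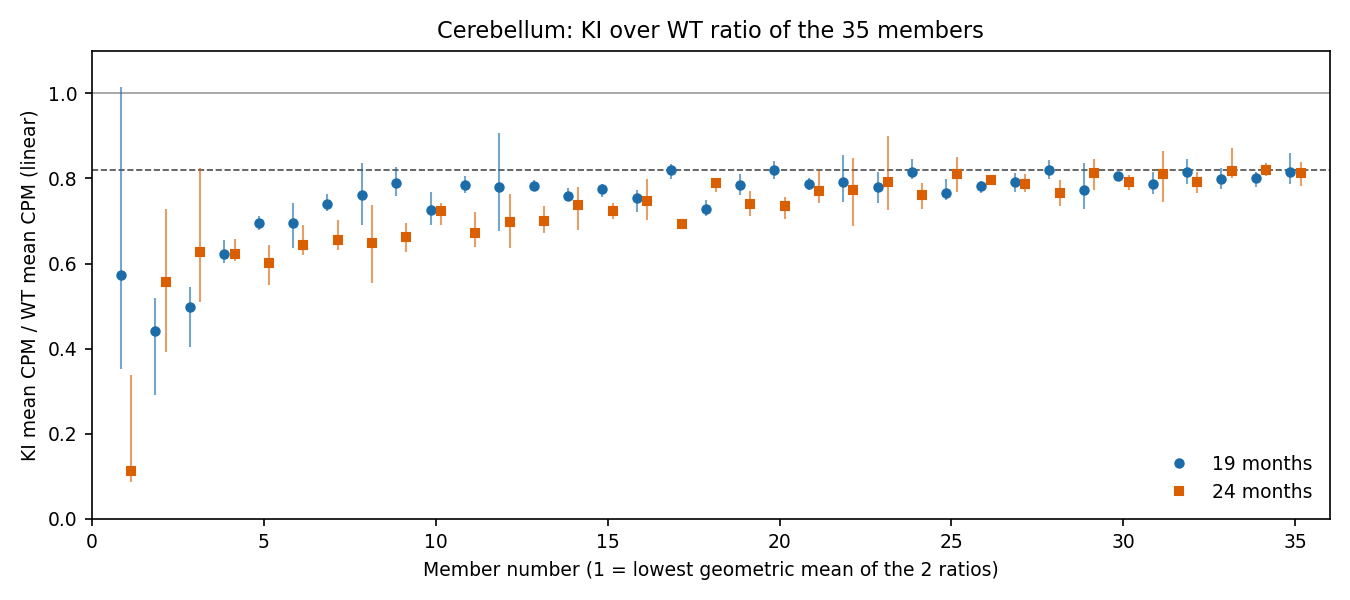
KI mean CPM over WT mean CPM in cerebellum for each of the 35 members at 19 months (circles) and 24 months (squares); lines span the ratios after leaving out each library in turn, the dashed line is the limit of 0.82 and the solid line is equality. Members 1 to 3 had the lowest ratios at 19 months (0.442 to 0.572) and member 1 the lowest at 24 months (0.113), and their lines are among the longest.

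Some members lay close to the limit that chose them, while 23 of the 35 also met a limit of 0.80. The 3 just inside it had 0.8194, 0.8196 and 0.8197 as the larger of their ratios, and the 3 just outside had 0.8208, 0.8209 and 0.825. Of the 35 members, 32 had a ratio below 1 in females and in males at both ages. The exceptions were members 2, 8 and 23, whose ratios in 24-month females were 1.21, 1.05 and 1.01. The same libraries chose the members, so ratios below 1 within each sex largely follow from the rule and nothing is read from them. Applied to females only, the rule gave 58 genes, 23 of them among the 35. Applied to males only, it gave 45 genes, with 17 of the 35.

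The edgeR quasi-likelihood fit of the same libraries called 19 members lower in KI at 19 months at an adjusted p under 0.05, where 1.28% of all genes tested were called lower, and 17 at 24 months, where 0.969% were. The members' median log2 difference was -0.37 at 19 months and -0.45 at 24 months, against -0.00 over all genes at both. The fit used the libraries that chose the members, so these counts describe the choice and nothing is read from them.

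A stricter description asks whether every KI library lay below every WT library. At 19 months, with 10 libraries per genotype, this held for 4 members (numbers 5, 13, 14 and 30), and for 0.146% of all genes tested. At 24 months, with 7 KI and 4 WT libraries, it held for 14 members, and for 1.32% of all genes tested. Members 13 and 30 were separated at both ages, and 19 members at neither.

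Member 30 had the tightest WT levels of all at 19 months, with a coefficient of variation of 5.65%. Its WT libraries ran from 246 to 295 CPM with a median of 267 at 19 months, and its KI libraries from 194 to 240 with a median of 216. At 24 months its WT libraries ran from 246 to 273 CPM and its KI libraries from 185 to 235. The genotypes thus lay side by side without overlap at each age, with means of 269 ± 15.2 (SD, n = 10) and 216 ± 13.7 (SD, n = 10) CPM at 19 months.

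Member 13 showed the same arrangement, and its ratio was lower at the later age. WT libraries ran from 107 to 137 CPM and KI libraries from 78.6 to 105 at 19 months. At 24 months WT libraries ran from 105 to 138 CPM and KI libraries from 71.0 to 93.8. The ratio was 0.782 at 19 months and 0.699 at 24 months.

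Member 4 had nearly the same ratio at both ages, 0.623 at 19 months and 0.622 at 24 months. At 19 months its WT libraries ran from 95.2 to 155 CPM with a median of 139, and its KI libraries from 45.8 to 111 with a median of 90.9, so the highest KI libraries overlapped the lowest WT library. In the older animals the 4 WT libraries held 129, 138, 144 and 147 CPM, and the KI libraries ran from 56.6 to 99.2 with a median of 92.4, with no overlap. The lowest KI library at 24 months, that of male 1, stood well below the other 6, which held 83.4 CPM or more.

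Member 26, among the 3 most abundant members per length, had ratios of 0.782 at 19 months and 0.795 at 24 months. Its WT libraries ran from 379 to 531 CPM and its KI libraries from 324 to 406 at 19 months. At 24 months the WT libraries held 446, 447, 448 and 449 CPM, and the KI libraries ran from 320 to 379. The genotypes overlapped at 19 months through 1 low WT library and were apart at 24 months.

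Member 15 had the highest level per length, a WT mean of 452 TPM at 19 months. Its WT libraries ran from 233 to 325 CPM and its KI libraries from 200 to 270 at 19 months, with medians of 315 and 243. Those of 24 months ran from 298 to 350 CPM in WT and from 209 to 261 in KI. As for member 26, the overlap was at 19 months only.

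Member 5 was separated at 19 months and not at 24 months, at a low level throughout. WT libraries ran from 4.14 to 6.44 CPM and KI libraries from 2.92 to 4.06 at 19 months. Later, at 24 months, the 4 WT libraries held 4.54, 5.57, 5.91 and 6.80 CPM, and the KI libraries ran from 2.61 to 5.196 with a median of 3.18. A single KI library, that of male 1, reached into the WT range at 24 months.

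Member 11 had a ratio of 0.784 at 19 months, with WT libraries from 6.90 to 10.2 CPM and KI libraries from 5.17 to 8.29. In the 24-month set the WT libraries held 7.15, 7.85, 8.87 and 10.3 CPM and the KI libraries ran from 4.28 to 7.07. The genotypes overlapped at the first age and lay edge to edge at the second.

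**Figure D2:**
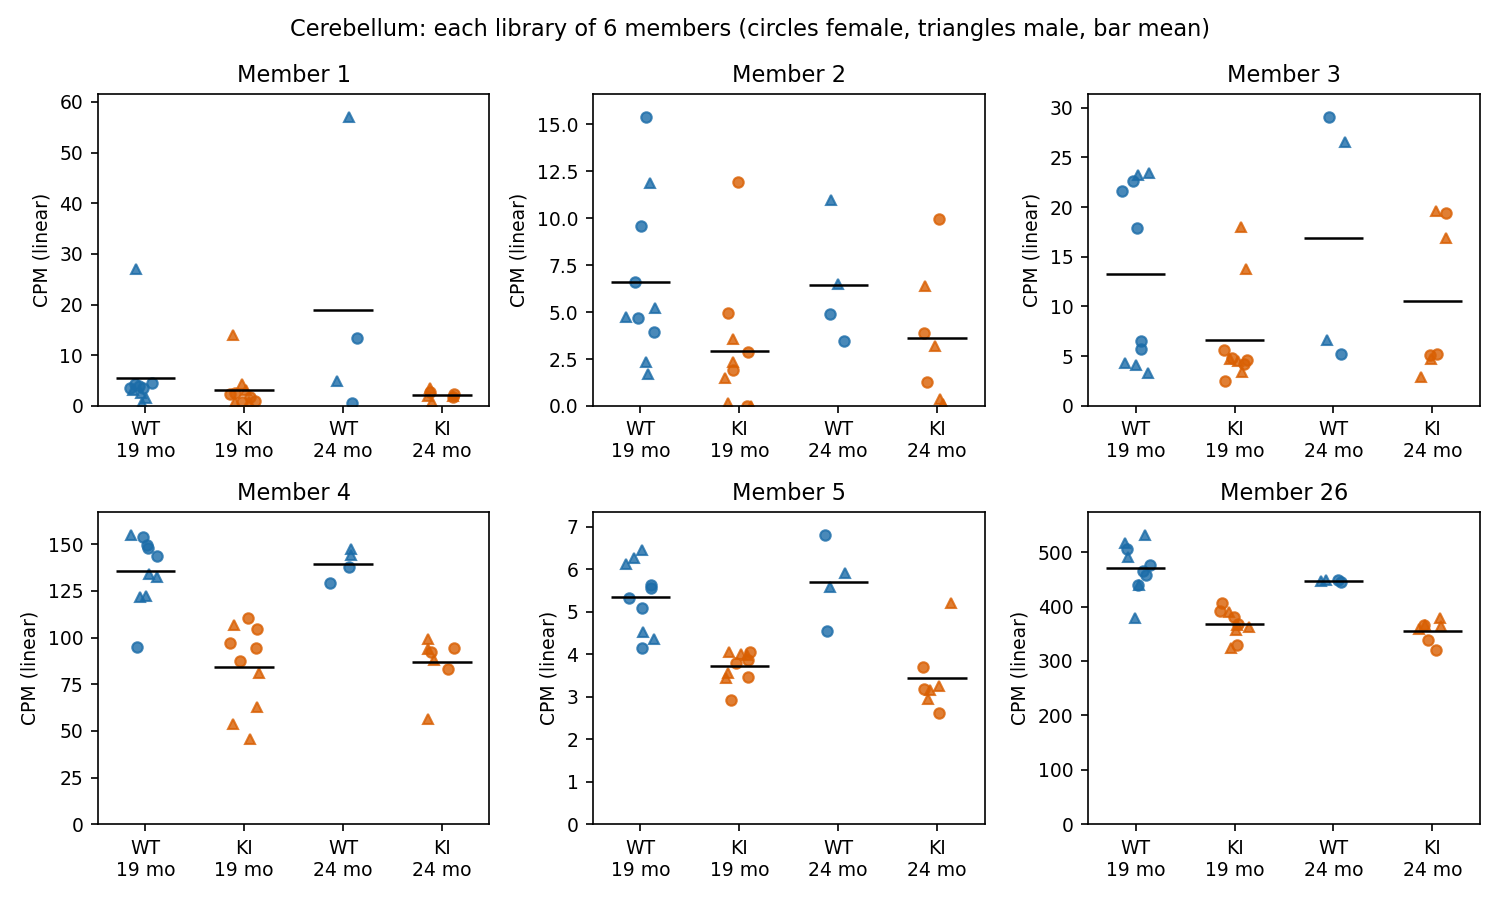
CPM in every cerebellar library for members 1, 2, 3, 4, 5 and 26, by genotype and age, with females as circles, males as triangles and the group mean as a bar; each axis is linear and starts at 0. In members 4 and 26 whole groups are shifted, whereas the WT mean of member 1 rests on 1 or a few high libraries and member 3 splits each genotype into low and high libraries.

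The 3 members of lowest ratio were of another kind. Member 1 had a WT mean of 5.49 ± 7.67 CPM (SD, n = 10) at 19 months, since male 2 held 27.0 CPM and the other 9 WT libraries between 0.592 and 4.59. The KI libraries ran from 0.704 to 14.0 CPM with a median of 2.13. At 24 months the 4 WT libraries held 0.650, 4.92, 13.5 and 57.0 CPM, and the KI libraries ran from 0.831 to 3.46. The ratio of 0.572 at 19 months became 1.01 when WT male 2 was left out, and the ratio of 0.113 at 24 months became 0.339 without the WT library at 57.0 CPM.

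Member 3 split the 20 animals of 19 months into a low and a high set. In 13 cerebellar libraries it lay between 2.50 and 6.53 CPM and in 7 between 13.7 and 23.4, and the high set held 5 WT and 2 KI animals. In the striatum of the same 20 animals it ran only from 7.41 to 12.1 CPM, and in their cortex from 2.96 to 5.11. The 7 animals high in cerebellum held between 8.89 and 11.2 CPM in striatum, inside the range of the others. At 24 months the 4 WT libraries held 5.19, 6.65, 26.5 and 29.0 CPM and the KI libraries ran from 2.95 to 19.6.

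The high libraries of members 1 and 3 coincided in part. WT male 2 and KI male 4, which held the highest values of member 1 at 19 months (27.0 and 14.0 CPM), were both in the high set of member 3. In striatum member 1 ran from 3.06 to 6.15 CPM over the same 20 animals, so the wide spread was in cerebellum. What these libraries share beyond the 2 members was not tested.

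Member 2 varied widely in all 3 regions. In cerebellum at 19 months its WT libraries ran from 1.70 to 15.4 CPM and its KI libraries from 0.000181 to 11.9, and in striatum of the same animals it ran from 0.00626 to 18.1. Its estimated counts were fractional in 100% of libraries, a form that arises when reads shared by overlapping or similar genes are divided among them. The same held in over 90% of libraries for members 3, 8, 14 and 18, and in 40.0% for member 7, while the other 29 members had whole counts in every library. Levels of the 6 members with fractional counts are therefore uncertain, since reads could be split between gene copies.

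The coefficient of variation over WT animals at 19 months exceeded 50% in 5 members (numbers 1, 2, 3, 8 and 12), against a median of 15.04% over the 35. With medians in place of means, 23 of the 35 members kept a ratio of at most 0.82 at both ages. Leaving out single libraries moved the ratio above 1 for member 1 alone, and the next highest value at 19 months was 0.908, for member 12. Leaving out any 1 of the 24-month libraries left all 35 ratios at or below 0.9.

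Libraries also moved together across members. At 19 months, 8 members (numbers 6, 10, 16, 20, 32, 33, 34 and 35) were lowest in KI female 5 among KI libraries and in WT male 2 among WT libraries. Member 6 is an example, at 27.7 CPM in the lowest KI library against a KI median of 65.6, and at 45.2 CPM in the lowest WT library against a WT median of 106. Each of the 2 libraries was also the highest of its group for other members, KI female 5 for 8 and WT male 2 for 10. In these 2 libraries the level relative to the mean of the 20 libraries fell with effective transcript length across genes more steeply than in the other 18, with Spearman correlations of -0.469 and -0.369. The 8 members had a median length of 1.26 relative to the median gene, with a range from 0.589 to 2.56. One of these libraries was KI and the other WT. Without both, 36 genes met the rule, 30 of them among the 35.

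Sex made no called difference. Over the cerebellar libraries of both ages, 0 of 35 members were called by edgeR for a female against male difference, where 0.0989% of all genes were called, and 3 members had an unadjusted p under 0.05, as did 4.004% of all genes. For the interaction of sex with genotype, 0 of 35 members were called, where 0% of all genes were, and 0 had an unadjusted p under 0.05, as did 5.32% of all genes. DESeq2 called 0 members in either comparison, and 21 and 4 of 16184 genes. The smallest p between sexes was that of member 14, which was at -0.23 for females minus males on the log2 scale (SE 0.06, edgeR adjusted p = 0.367).

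The label of a gene set without cerebellar enrichment fits only part of the list. By the rule, a member had to stay under 4 times the level of 1 forebrain region, and 12 of the 35 exceeded 4 times the level of the other at 19 months. In WT animals of 19 months, 24 of 35 members were higher in cerebellum than in both striatum and cortex, 6 lay between and 5 were below both. The cerebellar level was a median of 1.93 times that of striatum (range 0.360 to 6.99) and 2.27 times that of cortex (range 0.259 to 9.87). At 24 months, in WT libraries that set no regional condition, 24 members were highest in cerebellum, 8 lay between and 3 were below both. The cerebellar libraries among these did enter the KI over WT ratio and the 5 CPM floor of the rule, so this is not an independent repeat.

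**Figure D3:**
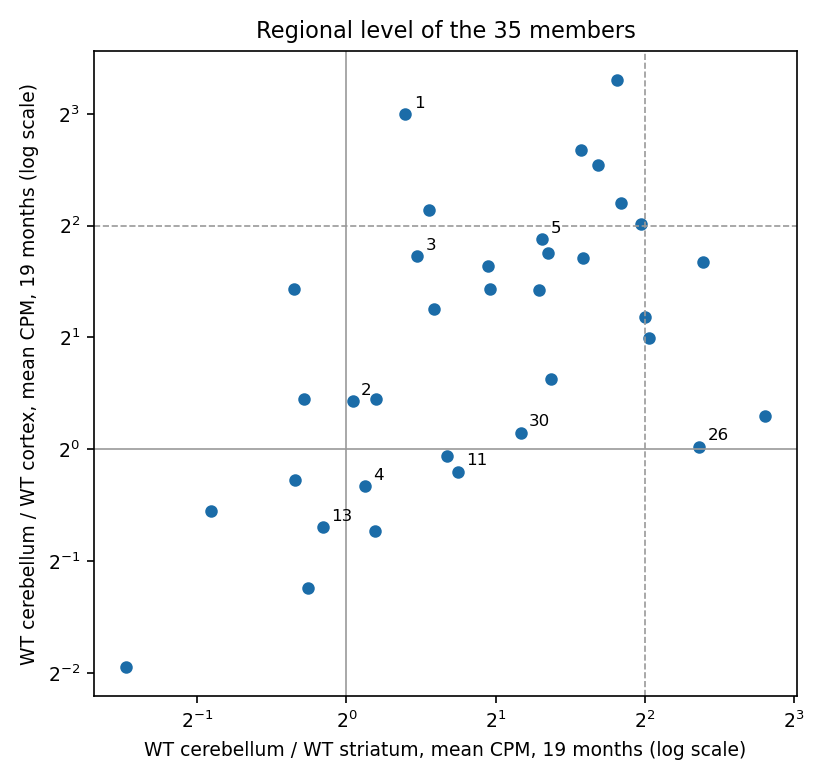
WT cerebellar mean over WT striatal mean (x) and over WT cortical mean (y) of CPM at 19 months for the 35 members, on log scales; solid lines mark equality and dashed lines 4 times. By the rule no member lies above 4 times on both axes, and most lie above equality on both, while 5 lie below it on both.

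Individual members had quite different regional profiles. Member 26 was at a WT mean of 470 CPM in cerebellum and 463 in cortex but 91.4 in striatum at 19 months. Member 6 was highest in cerebellum, 3.52 times striatum and 9.87 times cortex. Member 19 was a forebrain message, at 5.55 ± 0.853 CPM in cerebellum, 15.4 ± 2.56 in striatum and 21.4 ± 2.14 in cortex (SD, n = 10 each), with no cerebellar library reaching the lowest of either forebrain region. Members 13, 14, 29 and 31 were also below both forebrain regions.

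In KI animals fewer members were highest in cerebellum, 18 of 35 at 19 months and 18 at 24 months. The median cerebellum over striatum ratio was 1.57 in KI and 1.93 in WT at 19 months, and the median over cortex was 1.71 and 2.27. Since the rule fixed the lower cerebellar level in KI, these are the same measurement seen from another side.

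Between cortex and striatum of the same 10 WT animals of 10 months, which took no part in the rule, 31 of 35 members were called by edgeR with the animal as a block, 15 higher in cortex and 16 lower. Of all genes tested, 72.4% were called, so the forebrain regions differed for most genes. Member 26 had a log2 difference of 2.56 (SE 0.05) in favour of cortex. Member 1 had the strongest bias to striatum, with a log2 difference of -3.07 (SE 0.19), at a WT mean of 0.50 CPM there and 4.47 in striatum.

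The next question was whether the members also differed between genotypes in the forebrain, in libraries that the choice of members did not use for genotype. At 19 and 24 months these libraries came from the same animals as the cerebellar libraries that chose the members. Only those of 2, 6 and 10 months came from other animals. In striatum, edgeR called 0 of 35 members at 2 months (background 0% of all genes tested), 0 at 6 months (0.013%), 0 at 10 months (0.00654%), 0 at 19 months (0.0196%) and 0 at 24 months (0%). Members with an unadjusted p under 0.05 numbered 7, 6, 2, 1 and 1 at these ages, against 6.22%, 8.22%, 5.78%, 1.70% and 2.99% of all genes. Of the 7 at 2 months 6 were higher in KI, as were 5 of the 6 at 6 months. In cortex, edgeR called 0 members at 10 months (0%), 0 at 19 months (0%) and 0 at 24 months (0%), and 3, 6 and 4 members had an unadjusted p under 0.05, against 6.66%, 5.32% and 5.001% of all genes. All of these were lower in KI except 2 of the 6 at 19 months. DESeq2 called 0 members in each of these comparisons except striatum at 6 months, where it called 1 member and 98 of 15377 genes. In striatum at 2, 10, 19 and 24 months it called 17, 3, 4 and 5 genes, and in cortex 16, 0 and 4. With almost no gene called by edgeR in any of these comparisons, a count of 0 members called is what the background gives. The share of members with an unadjusted p under 0.05 was above that of all genes in cortex at each age. In striatum it was above at 2, 6 and 19 months and slightly below at 10 and 24 months. Members were measured in the same animals, so these shares are not a test.

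**Figure D4:**
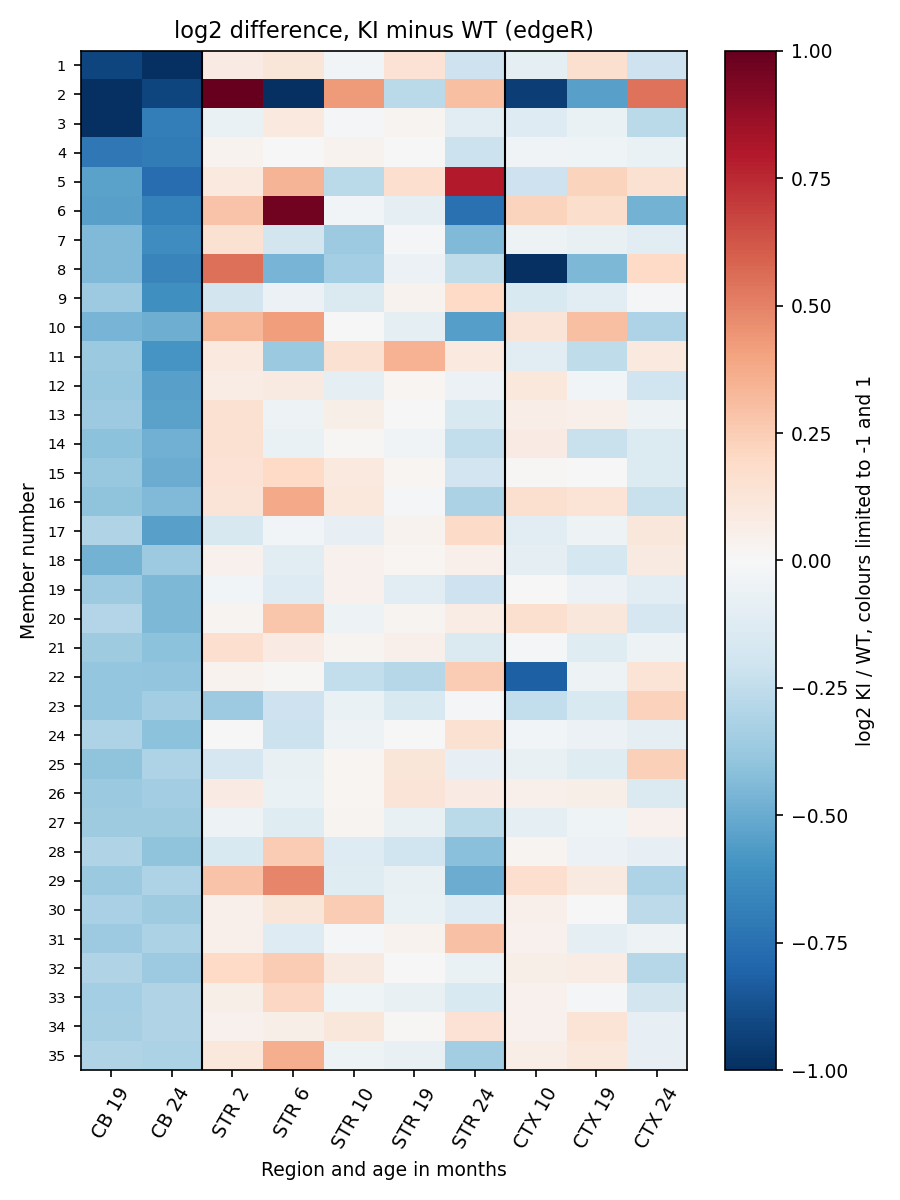
log2 difference KI minus WT from edgeR for the 35 members (rows) in cerebellum (CB), striatum (STR) and cortex (CTX) at the ages in months given on the axis, with colours limited to -1 and 1. The cerebellar columns are below 0 throughout because that chose the members, and the forebrain columns show both signs.

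The members' median log2 difference in striatum was 0.08 at 2 months, 0.01 at 6 months, -0.02 at 10 months, 0.00 at 19 months and -0.13 at 24 months. In cortex it was 0.00 at 10 months, -0.04 at 19 months and -0.09 at 24 months. The median over all genes lay within 0.02 of 0 in each of these. In striatum 8, 16, 18, 17 and 23 of the 35 members were below 0 from 2 to 24 months, where 51.2%, 53.3%, 47.8%, 46.5% and 47.1% of all genes were. In cortex 17, 23 and 25 members were below 0 at 10, 19 and 24 months, where 52.9%, 52.3% and 47.8% of all genes were. Most members were thus above 0 in striatum at 2 months and below 0 at 24 months. The members were measured in the same animals, so these sign counts are not a test of age. The animals of 19 and 24 months also gave the libraries that chose the members, so age and that choice cannot be told apart.

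Averaged over 10, 19 and 24 months in a fit of all ages of a region, edgeR called 0 of 35 members in striatum (background 0.0492%) and 0 in cortex (0.00621%). The unadjusted p was under 0.05 for 3 members in striatum and 1 in cortex, where 7.71% and 3.51% of all genes were under it. DESeq2 called 0 members in both, and 36 of 16248 genes in striatum and 3 of 16108 in cortex. The median log2 difference of the members was -0.03 in striatum and -0.05 in cortex, with 21 and 27 of 35 below 0. These averages use the same libraries as the single ages and are not separate evidence.

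The intervals of these averages show what sizes the data leave room for. The 95% interval lay wholly above the log2 value of the 0.82 limit, which is -0.29, for 25 of 35 members in striatum, as for 77% of all genes tested. In cortex it did so for 31 of 35 members, as for 86% of all genes tested. For these members an average fall as large as the limit set in cerebellum lay outside the interval of that region, a share close to that of genes in general.

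**Figure D5:**
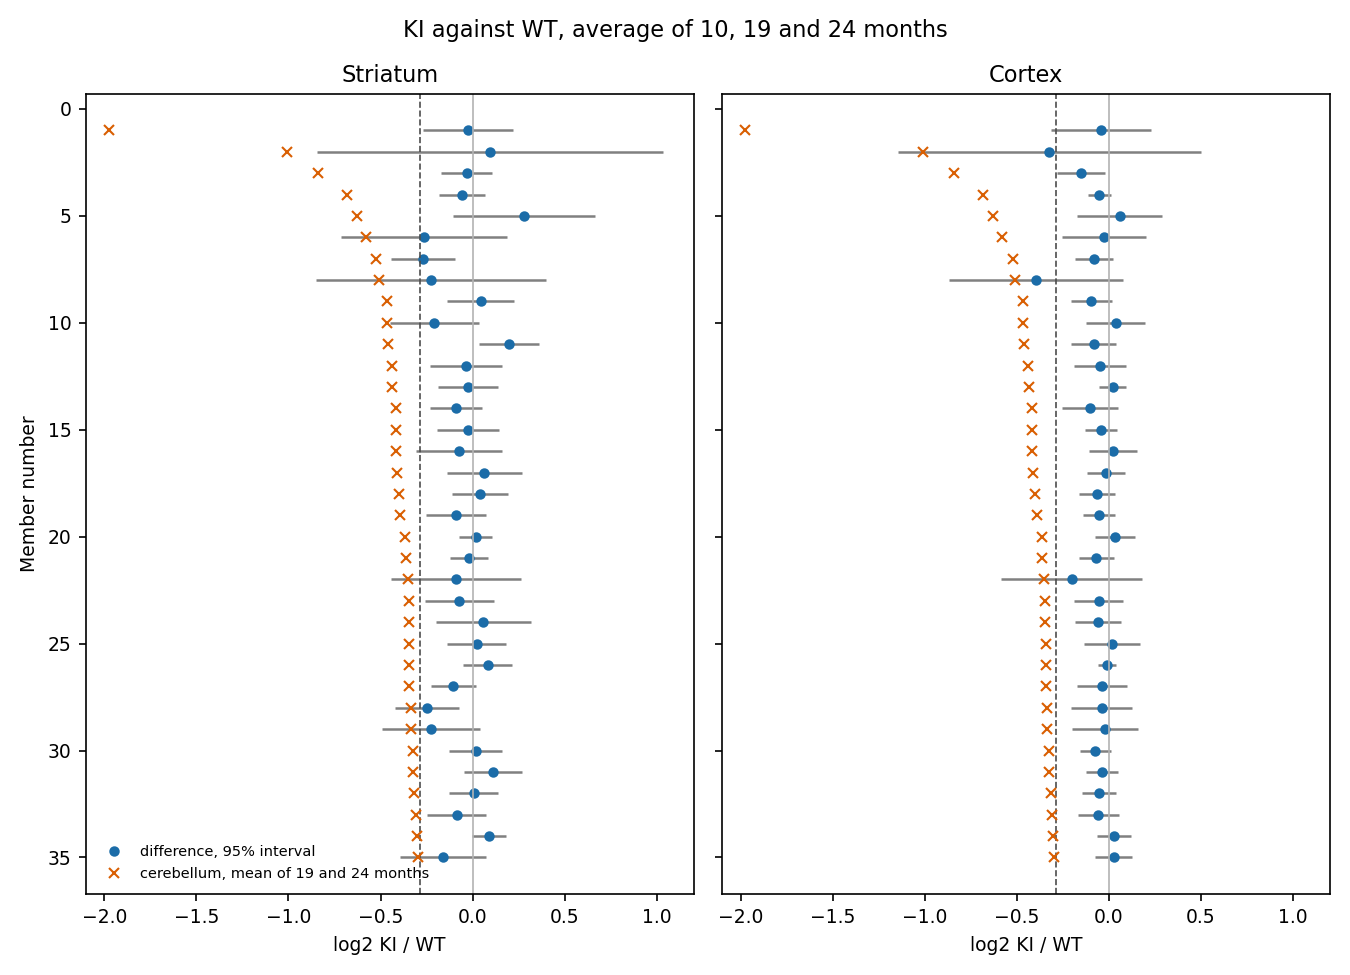
Average log2 difference KI minus WT over 10, 19 and 24 months with its 95% interval for each member in striatum (left) and cortex (right), with crosses for the log2 of the geometric mean of the cerebellar ratios; the dashed line is the log2 of 0.82. Intervals are wholly right of the dashed line for 25 members in striatum and 31 in cortex.

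Members differed in how narrow their forebrain intervals were, and member 4 is among the narrow ones. In cortex its WT and KI libraries of 19 months ran from 153 to 182 and from 146 to 181 CPM, and in striatum from 99.7 to 134 and from 104 to 139. The average log2 difference was -0.06 (95% interval -0.18 to 0.07) in striatum and -0.05 (-0.11 to 0.01) in cortex. Member 26 gave 0.08 (-0.05 to 0.22) in striatum and -0.01 (-0.06 to 0.04) in cortex, and member 13 gave -0.03 (-0.19 to 0.14) and 0.02 (-0.05 to 0.09).

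Members 2 and 8 had the lowest averages in cortex, both with wide intervals and with fractional counts. Member 8 had a cortical average of -0.40 (95% interval -0.87 to 0.08) and a striatal one of -0.23 (-0.85 to 0.40). In cortex at 10 months it held 18.9 ± 10.1 CPM in WT and 9.52 ± 7.12 in KI (SD, n = 10 each), with overlapping ranges and an edgeR adjusted p of 0.647. Member 2 had -0.32 (-1.15 to 0.50) in cortex and 0.09 (-0.85 to 1.03) in striatum. For these 2 members a forebrain fall as large as the cerebellar limit lay inside the interval.

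Member 7 came closest to a striatal fall, with an average log2 difference of -0.27 (95% interval -0.44 to -0.10, edgeR adjusted p = 0.417). Its striatal means were 49.5 ± 13.6 CPM in WT and 38.3 ± 9.58 in KI at 10 months (SD, n = 10 each). At 19 months they were 53.2 ± 9.65 and 51.9 ± 8.66, and at 24 months 50.9 ± 11.8 (n = 4) and 39.5 ± 6.89 (n = 7). The genotypes overlapped at each age. Member 28 followed with -0.25 (-0.42 to -0.07, edgeR adjusted p = 0.461).

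Members 5 and 11 had the opposite sign in striatum. Member 11 had an average log2 difference of 0.20 (95% interval 0.03 to 0.36, edgeR adjusted p = 0.551), and in cortex -0.08 (-0.20 to 0.04). Member 5 had 0.28 (-0.11 to 0.66, edgeR adjusted p = 0.759), most of it from 24 months, when its KI striatal libraries ran from 1.75 to 20.9 CPM with a median of 4.69 and its 4 WT libraries from 2.30 to 5.55. The KI mean there was 6.65 ± 6.53 CPM (SD, n = 7), raised by high libraries, and the WT median was 2.38 CPM. At 10 months the striatal KI mean was the lower, 1.60 ± 0.402 CPM against 1.96 ± 0.960 in WT (SD, n = 10 each).

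Member 6 was the 1 member that DESeq2 called between genotypes in the forebrain, among 98 genes called in striatum at 6 months. There the 3 KI libraries held 28.1, 29.1 and 29.3 CPM and the 3 WT libraries 9.92, 15.6 and 19.3. DESeq2 gave a log2 difference of 0.97 (SE 0.19, adjusted p = 0.000425), higher in KI. The edgeR fit of the same libraries gave 0.96 (SE 0.18, adjusted p = 0.320), and 0.0292 without WT male 1. In striatum of 24 months its sign was the other way, at -0.75 on the log2 scale (SE 0.43, edgeR adjusted p = 0.998). Over the 35 members, 15 had a positive difference at 6 months and a negative one at 24 months, 8 the reverse, 4 a positive one at both ages and 8 a negative one at both. No member was called by edgeR at either age.

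Levels in WT animals were also compared between ages. The 19-month animals carry identifiers of another series than the 10-month and 24-month animals, so age and animal series cannot be told apart in these comparisons. In cerebellum the WT mean of 24 months over that of 19 months ran from 0.828 to 3.46 with a median of 1.01, the highest value being that of member 1. Between 10 and 19 months edgeR called 3 of 35 members in striatum, where 5.13% of all genes were called, and 1 of 35 in cortex, where 7.09% were. The WT libraries of 19 months had entered the regional condition of the rule. The share of members called was above the background in striatum and below it in cortex, and both shares rest on few genes.

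In striatum member 22 was higher at 19 than at 10 months, going from 1.17 ± 0.599 to 2.44 ± 0.697 CPM (log2 difference 1.03, SE 0.26, edgeR adjusted p = 0.0250) and so was member 14, from 39.3 ± 6.81 to 50.9 ± 5.86 (0.35, SE 0.09, adjusted p = 0.0365; n = 10 per age). Member 11 was lower at 19 months, from 6.58 ± 1.01 to 5.16 ± 0.704 CPM (-0.38, SE 0.10, edgeR adjusted p = 0.0356). The ages overlapped in all 3. Without the outlying libraries WT male 1 and male 2 of 10 months and WT male 4 of 19 months, member 11 alone was called. In cortex member 3 was higher at 19 months, from 2.83 ± 0.569 to 4.01 ± 0.406 CPM (0.50, SE 0.08, edgeR adjusted p = 0.00129).

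The members shared no common length. Effective transcript length relative to the median gene at 5 CPM or more had a median of 0.939 over the 35 members, with a range from 0.318 to 4.42, and 20 members were shorter than the median gene. The middle part of the 11343 genes, from the lower to the upper quartile, ran from 0.667 to 1.51.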

How the data were processed

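The members and gene lists were chosen with earlier results of these data known. The deposited count table holds estimated counts for 32883 identifiers, with 8.12% of values not whole, and these were rounded for the fits, although the design had assumed whole counts. The other deposited table carries the name FPKM, yet its columns each sum to 1000000, and it was used as TPM. The reference is Rat.B6.0, per the file headers; which aligner, annotation and counting tool were used is not given in the sources used here. Per the labels' protocols, total RNA was taken from frozen tissue. Unused value columns numbered 0.

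CPM, used for the rule and all levels, divides counts by the column total. Genotypes were compared within each region at each age in R 4.3.3 by edgeR 4.0.16 (TMM, filterByExpr, robust quasi-likelihood F test, sex as covariate where both sexes were present), with Benjamini-Hochberg adjustment over all genes tested and a threshold of 0.05. All 35 members passed the count filter in every fit with these main settings. Effective length is the ratio of both tables. Alternatives used RLE size factors, DESeq2 1.42.0, limma 3.58.1 on log2 of the TPM values plus 0.1 or 1, other count filters, no sex term, a replicate block, and fits without single or outlying libraries; a library was outlying when its mean Spearman correlation fell short of the median by over 5 scaled median absolute deviations. Each library of a group is from another animal, and p-values rest on the spread between animals. The fits were tested on simulated data. Lists of named genes and markers were not used, since identifiers matched no symbol. The rule for printed identifiers, without symbols, allowed the 2 members of lowest ratio and 2 that were higher in KI elsewhere.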

Additional observations from a re-analysis of the deposited data

Results flagged for a closer look

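In 28 groups of cerebellar libraries (7 members in 4 groups), 6 had 1 library standing far from the rest by Dixon's gap test, of which chance alone flags about 1 in 20 groups. For member 1 these were KI male 4 at 19 months, at 13.98 CPM, and WT male 2 at 19 months, at 27.03 CPM, both above their groups. For member 2 it was KI female 5 at 19 months, the highest at 11.93 CPM. For member 4 it was KI male 1 at 24 months, the lowest at 56.56 CPM. For member 5 these were KI female 2 at 19 months, the lowest at 2.919 CPM, and KI male 1 at 24 months, the highest at 5.196 CPM. The part of these libraries in the ratios is given by the values without them, which is 1.01 for member 1 at 19 months without WT male 2.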

How the results depend on the processing

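The list depends on its limits. With a ratio limit of 0.80 the rule gave 23 genes, with 0.85 it gave 65, with a level below 4 times both forebrain regions 23, and in females only 58; the cause was not tested beyond the limits themselves. TMM-scaled CPM gave 40 genes (33 of the 35 among them), TPM-scale values 37 (26 of the 35) and males only 45 (17 of the 35). The rule without outlying libraries gave 35. The outlying libraries are all from striatum or cortex, so leaving them out could not change a cerebellar ratio. Leaving out each 24-month cerebellar library gave 29 to 38 genes. Chosen after seeing the data were leaving out each 19-month cerebellar library, which gave 30 to 45 genes, and medians in place of means, which gave 41, with 21 of the 35. Over the 31 libraries left out singly, 15 members were kept every time, and the least stable member, number 35, was kept 19 times.

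In striatum at 6 months the 0 members called became 1 with DESeq2 (member 6), 1 without KI male 1 (member 2, lower in KI) and 1 without WT male 1 (member 6). Leaving out each library in turn at this age gave 0 to 1 called, and the median log2 difference ran from 0.00 to 0.07, the latter without WT male 3. In cortex at 24 months the members' median became -0.16 with limma on the TPM values plus 0.1 and -0.12 plus 1. For WT 19 against 10 months, the 3 members called in striatum became 1 without outlying libraries. The 1 in cortex became 3 with DESeq2, which called 1539 of 15241 genes there, and 3 without outlying libraries. The cause was not tested. With a replicate block, 0 members were called in each of the 8 forebrain genotype comparisons, with medians from -0.11 to 0.08. Same-numbered libraries did not consistently deviate together (correlations from -0.38 to 0.46), so no pairing by number was seen. With few pairs per comparison, these correlations cannot exclude it. Of the other settings, 158 counts equalled the main count or stayed within 1.5 times it, and 156 medians or single-gene differences stayed on the same side or within 1 SD. Most of these counts were 0 members called where the main count was 0. Few genes of any kind were called there, so they say little about stability. With 4 WT animals at 24 months and 3 per genotype at 2 and 6 months, few animals stood behind those comparisons; whether depth limited them was not tested.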
